A study of Mus musculus with 71 samples.

Results

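Among the 71 striatum arrays of this mouse study, the 11 adult arrays fell into 2 sets that were chosen by their own measured values. For each array the 25th percentile of its log2 values was taken over all 15768 rows, each row standing for a gene with an Ensembl identifier. Arrays below 5.2 formed set A, which holds 5 arrays (3 hum and 2 wt), and arrays at 5.2 or above formed set B, which holds 6 (3 hum and 3 wt). The values are log2 expression values on a 1-colour oligonucleotide array, so a difference of 1 is a 2-fold difference. No label names these sets, and because the arrays were selected on the readout, the difference between the sets is described here without a test.

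All 11 adults were females of 95 days from line Ki2, with 1 animal to an array, and all were processed in array run 6. The hum animals were homozygous for the Foxp2hum allele, a mouse Foxp2 gene that carries the pair of human-specific substitutions, and the wt animals were Foxp2wt/wt. Both genotypes came from crosses of Foxp2wt/hum parents whose allele was made in C57BL/6 embryonic stem cells. The line descends from 1 clone, and the labels name that clone differently in different fields. Removal of the neomycin cassette is stated for the juvenile line Ki and not for Ki2. Striata of both hemispheres were dissected whole, together with the pallidum, and the labels' protocols state that RNA quality was checked. The other 60 arrays did not enter the choice of the sets. Of these, 25 held hum and wt embryos of line Ki2 at E16.5 (days of embryonic development), of both sexes (runs 4 and 5). The remaining 35 held juveniles of 15, 18 or 21 days, of both sexes (runs 1 to 3): 11 hum and 6 wt of line Ki, and 12 ko and 6 wt of line Ko. The ko animals were heterozygous, Foxp2wt/ko, with wt littermates from crosses to C57BL/6J, and 1 ko array held a pool of 2 animals. Juvenile striata were punched from slices rather than dissected whole.

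The striatum is the main input nucleus of the basal ganglia and consists mostly of GABAergic projection neurons, next to interneurons, glia and passing fibre tracts. Foxp2 is a forkhead transcription factor expressed in these projection neurons and is known for its part in speech in humans and in vocal and motor learning in animals. On such arrays the dimmest rows hold mostly background binding, so a low percentile describes the dark end of an array's brightness distribution. In bulk tissue, fewer cells of a type and less RNA per cell cannot be told apart. The identifiers could not be matched to gene symbols here, so the striatal label could not be checked against marker genes, and genes are given by identifier.

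In set A the 25th percentile was 5.14 in hum replicate 1, 5.14 in hum replicate 5, 5.15 in wt replicate 1, 5.18 in hum replicate 4 and 5.18 in wt replicate 5. In set B it ran from 5.22 in wt replicate 2 to 5.36 in hum replicate 3, with a median of 5.27. The values nearest to the threshold were 5.183 inside set A and 5.218 inside set B, a gap of 0.0345. That gap was not the widest, since hum replicate 3 lay 0.0744 above the next array, so on this measure the arrays formed a row rather than 2 clumps. At the middle of the distribution the sets were alike, with array medians of 6.91 to 6.94 in set A and 6.92 to 6.95 in set B. At the bright end the order turned: the 90th percentile was 9.87 to 9.97 in set A and 9.77 to 9.89 in set B. The interquartile range was accordingly 3.37 to 3.50 in set A and 3.11 to 3.37 in set B, so set B arrays had the narrower spread of brightness.

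The 11 animals came from 6 litters, of which 2 were represented in both sets. Litter 25 gave 2 arrays to each set and litter 26 gave 1 to each, whereas the animals of litters 13 and 14 were in set A and those of litters 20 and 24 in set B. Replicate numbers follow the order of deposit and carry no meaning between groups.

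**Figure D1:**
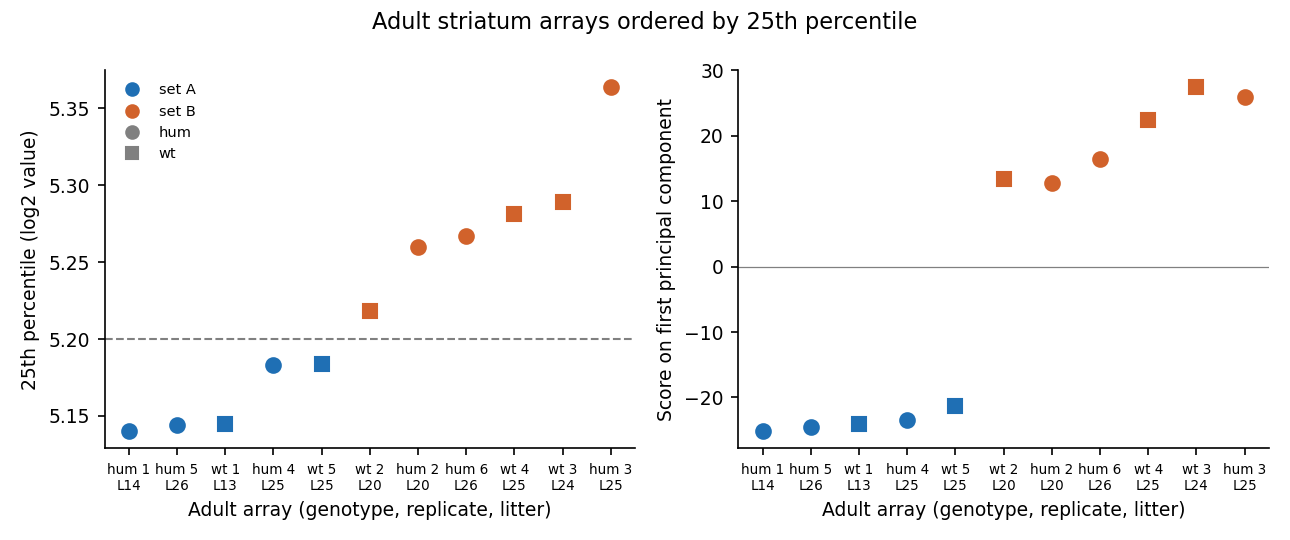
The left panel plots the 25th percentile of log2 values for each adult array, in rising order, with the dashed line at 5.2, and the right panel plots the score of the same arrays on the first principal component of 9461 genes. Circles are hum, squares wt, blue set A and orange set B; L gives the litter. The percentiles rise in small steps, while the scores leave an empty stretch between -21.4 and 12.8.

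Over the 9461 genes left after the dimmest 40% of rows were removed, the arrays did separate. The first principal component held 49.3% of the variance, and its scores ran from -25.1 to -21.4 in set A and from 12.8 to 27.4 in set B. The second component held 19.4%, and it set wt replicate 1 of set A apart, at 34.6 against -10.4 to -6.17 in the other 4 arrays of that set. This animal was the only one of litter 13. Its values are therefore followed separately wherever they move a result. Correlations between arrays over these genes had a median of 0.981 over the 10 pairs within set A and 0.973 over the 15 pairs within set B. Between the sets the median over 30 pairs was 0.931, with a range of 0.887 to 0.954. The lowest pair within a set reached 0.946, below the highest pair between sets.

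Among the 9461 genes tested, the larger differences between the sets were mostly falls in set B. After adjustment for genotype, 295 of 9461 genes were lower in set B by more than 2-fold (3.12% of genes tested), and 40 were higher (0.423%). At more than 4-fold, 12 genes were lower and 1 was higher. With a looser limit of 0.5 on the log2 scale the numbers were 1341 lower and 687 higher, and the median difference over all genes was 0.01. Every set B array lay below every set A array for 1305 genes (13.8%), and above for 694 genes (7.34%). These shares are the background of the choice itself and carry no test. Among the 295 lower genes, 271 had no overlap between the sets, and among the 40 higher genes 23 had none. After quantile normalization the genes without overlap were nearer to balance, with 1148 below and 925 above. Of the 6307 dim rows left out, 428 lay above without overlap and 85 below. As a share, those above were near the 7.34% of the genes tested, and those below were far under the 13.8%. The median difference over all 15768 rows was 0.08.

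The number of higher genes rested on single arrays more than the number of lower genes did. Leaving out each adult array in turn gave 253 to 341 genes lower by more than 2-fold. The higher genes numbered 64 without wt replicate 1, 64 without wt replicate 4, 21 without wt replicate 3 and 12 without wt replicate 5. Without wt replicate 1 the genes with all set B arrays above all set A arrays numbered 1300. The largest positive difference, 2.71, belonged to a gene whose sets overlapped, with values of 6.94 to 9.46 in set A and 8.28 to 14.1 in set B.

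The size and direction of the difference changed with the brightness of a gene. When all rows were divided into 10 equal groups by their mean in the 60 arrays outside the comparison, 87.8% of the dimmest group was higher in set B, with a median difference of 0.09. In the third group from the bottom 81.9% was higher, with a median of 0.14. In the brightest group 44.2% was higher, the median was -0.06 and the range from the 5th to the 95th percentile widened to between -0.98 and 0.52. Of the genes lower by more than 2-fold, 73 fell in the brightest group and 1 in the dimmest. That dim rows were higher in set B restates the rule, which asked for a higher 25th percentile.

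**Figure D2:**
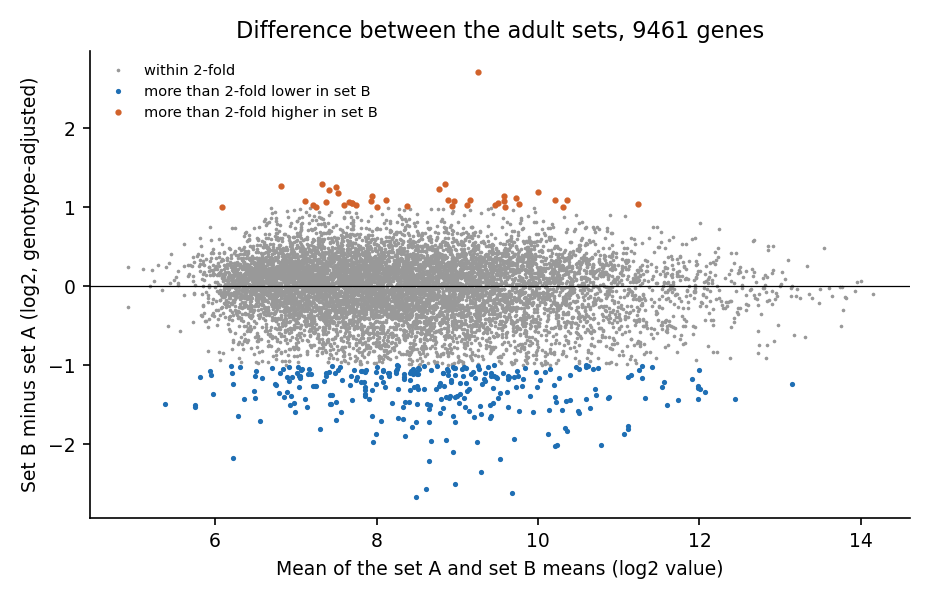
Each point is 1 of 9461 genes, with the mean of its 2 set means on the x axis (log2 value) and the genotype-adjusted difference of set B minus set A on the y axis (log2). Blue points are the 295 genes lower by more than 2-fold and orange points the 40 higher ones; the lower genes reach -2.67, and 1 point at 2.71 stands alone above the rest.

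The gene with the largest fall among those without overlap was ENSMUSG00000024411_at. Its log2 values in set A were 8.80 in wt replicate 1, 9.75 in wt replicate 5, 9.83 in hum replicate 1, 10.27 in hum replicate 4 and 10.52 in hum replicate 5. In set B they had a lowest value of 6.21, a median of 7.18 and a highest value of 8.25. Every set B array was below the lowest set A array, and the genotype-adjusted difference was -2.67. Among the other arrays this gene ran from 5.07 to 6.42 in embryos and from 6.30 to 9.82 in juveniles. The juvenile median of 9.10 lay above all of set B, so set B overlapped only juveniles below that median.

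ENSMUSG00000052456_at was tight in set A and spread in set B. Its values in set A were 10.69 in wt replicate 5, 10.81 in hum replicate 4, 10.98 in hum replicate 5, 11.09 in hum replicate 1 and 11.35 in wt replicate 1. Set B had a lowest value of 7.00 in wt replicate 4, a median of 8.44 and a highest value of 9.58 in wt replicate 2. The standard deviation was 0.256 in set A (n = 5) and 0.959 in set B (n = 6), around means of 10.98 and 8.36, and the adjusted difference was -2.61. All 25 embryos, at 10.63 to 10.87, lay above the whole of set B, and juveniles ran from 8.27 to 10.57.

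The largest rise among genes without overlap was that of ENSMUSG00000004894_at. Its set A values were 7.36 in wt replicate 5, 7.92 in hum replicate 4, 8.35 in hum replicate 1, 8.55 in wt replicate 1 and 8.79 in hum replicate 5. Set B ran from 9.03 in hum replicate 2, with a median of 9.47, to 10.11 in wt replicate 3, and the adjusted difference was 1.29. Embryos (5.07 to 6.24) and juveniles (5.80 to 7.23) were all below both adult sets for this gene.

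ENSMUSG00000044328_at was the next, also with an adjusted difference of 1.29. Set A held 6.31 in wt replicate 5, 6.45 in hum replicate 1, 6.49 in hum replicate 5, 6.80 in hum replicate 4 and 7.23 in wt replicate 1. Set B had a lowest value of 7.51, a median of 7.83 and a highest value of 8.58, so all of its arrays were above set A. Embryos reached 6.61 and juveniles 6.96, both below all of set B.

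**Figure D3:**
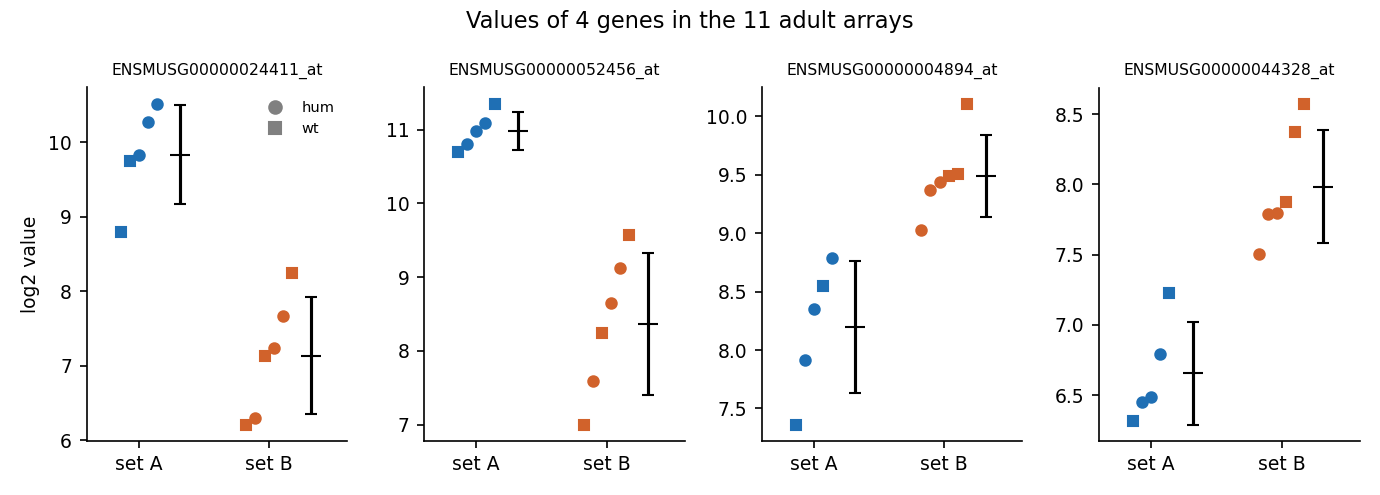
Log2 values of the 4 genes with the largest differences and no overlap, 1 panel a gene, for each adult array (circles hum, squares wt); the y axes differ between panels and do not start at 0. Black bars give the mean and SD of each set (n = 5 and n = 6). In each panel the 5 set A arrays and 6 set B arrays occupy separate ranges.

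The level of the lower genes was graded within set B, and over a narrower range within set A. The mean of the 295 lower genes, taken relative to the mean of all 9461 genes of the same array, was 0.91 to 1.05 in set A. In set B it was 0.005 in wt replicate 2, -0.09 in hum replicate 2, -0.21 in hum replicate 6, -0.39 in wt replicate 4, -0.44 in wt replicate 3 and -0.61 in hum replicate 3. This is also the order of their 25th percentiles, from which the sets were made. In set A this relative mean was 1.01 to 1.05 in the arrays with the lower percentiles, 0.97 in hum replicate 4 and 0.91 in wt replicate 5. Of the 295 genes, 282 to 292 were below the lowest set A value in each set B array, a count that the choice of these genes on these arrays nearly fixes. The mean of the 40 higher genes relative to all genes was -0.65 to -0.49 in 4 arrays of set A, -0.07 in wt replicate 1 and 0.46 to 1.28 in set B.

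Arrays left out of the choice of genes took the place of their set. Each adult array was left out in turn, genes differing by more than 2-fold were chosen on the remaining 10, and the array was placed on a scale where 0 is the mean of set A and 1 the mean of set B. The arrays of set A came to -0.04, 0.004, 0.04 and 0.07, and wt replicate 1 to 0.29. Those of set B came to 0.74, 0.77, 0.89, 0.94, 1.03 and 1.22. The set of the array left out was still given by its percentile, so these positions describe how shared the pattern is.

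Sisters of the same genotype differed in the same way. In litter 25, hum replicate 3 of set B was compared with hum replicate 4 of set A, and genes were chosen on the other 9 arrays. Of the 274 genes chosen as lower, 273 were lower in the set B sister, with a median of -1.51, and all 39 chosen as higher were higher. In litter 26, hum replicate 6 against hum replicate 5 gave 325 of 328 lower genes below 0 (median -1.14) and 44 of 48 higher genes above 0. In litter 25, wt replicate 4 against wt replicate 5 gave 317 of 325 (median -1.20) and 22 of 24. Over all genes 48.8%, 50.1% and 50.3% were below 0 in the 3 pairs. The percentile had put each sister in her set, so these values describe the pairs and carry no test.

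Estimates from the hum arrays alone and from the wt arrays alone share no animal, though litters 20 and 25 gave animals to both. Over 9461 genes, which are not independent of each other, their Pearson correlation was 0.81 and their Spearman correlation 0.78. The hum arrays gave 348 genes lower by more than 2-fold and the wt arrays 322, of which 216 were shared, or 62.1% of the first list and 67.1% of the second. The higher genes numbered 28 and 108, with 15 shared, or 53.6% and 13.9%. Of the 348 genes lower in hum arrays, 344 were below 0 in the wt arrays, where 50.7% of all genes were below 0. A single gene was past 2-fold in opposite directions. The same percentile rule divided the hum arrays and the wt arrays, so these values describe the arrays and carry no test.

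**Figure D4:**
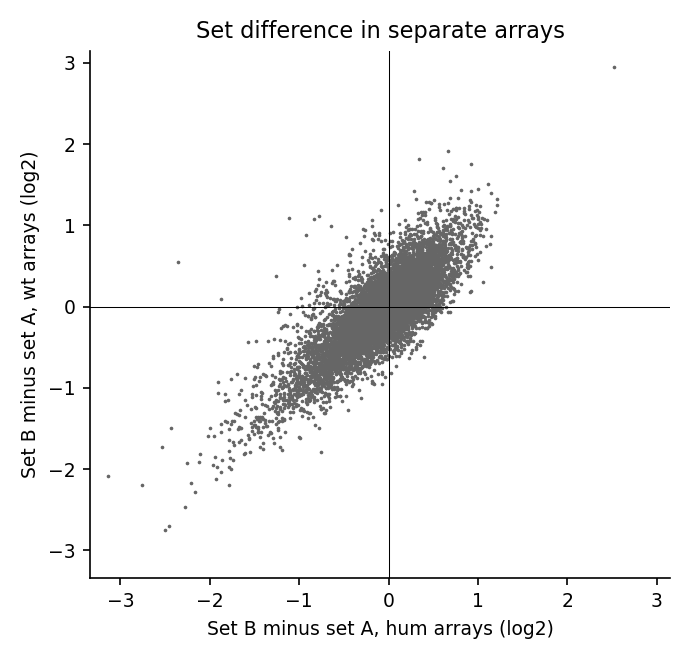
Each point is 1 of 9461 genes, with its difference of set B minus set A in the 6 hum arrays on the x axis and in the 5 wt arrays on the y axis (log2). The points run along the diagonal (Pearson correlation 0.81 over genes), and they extend further toward low values than toward high ones.

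The question the labelled design puts to these arrays is whether hum and wt adults differ. With the set in the fit, limma called 0 of 9461 genes (0%) at an adjusted p under 0.05, and the smallest adjusted p was 0.331. Before adjustment, 1338 genes (14.1%) had a p under 0.05, 580 of them higher and 758 lower in hum. This smallest value moved with single arrays: it was 0.0505 without wt replicate 5, 0.0748 without wt replicate 4 and 0.743 without wt replicate 1, with 0 calls each time. Without the set the fit also called 0 genes, with a smallest adjusted p of 0.709 and 643 genes (6.8%) at an unadjusted p under 0.05. Including the set lowered the median standard error of the genotype difference from 0.154 to 0.121 on the log2 scale. With the set, the 95% interval excluded a change of 1.5-fold either way for 82.4% of genes, against 68.4% without it. The set was made from the values of these same arrays, so a fit with it can narrow the intervals for that reason. The larger share is therefore taken as no gain in evidence. For the remaining genes the interval with these 11 arrays still held a change of that size.

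Within set A, 3 hum against 2 wt arrays gave 0 calls by limma and 783 genes (8.28%) at an unadjusted p under 0.05. Within set B, 3 against 3 gave 0 calls and 759 such genes (8.02%). The sets were made from the values of these same arrays, so these comparisons hold only for that split. The difference of the genotype effect between the sets, tested as an interaction, gave 0 calls, a smallest adjusted p of 0.996 and 337 genes (3.56%) at an unadjusted p under 0.05. When wt replicate 5 was left out, wt replicate 1 stood alone for wt in set A, and the comparison within set A then called 1210 genes and the interaction 1. When wt replicate 2 was left out, the comparison within set B called 2. A lone array is assumed in such a fit to vary like the other groups.

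The gene with the smallest p for genotype was ENSMUSG00000021493_at. It was 6.19, 6.23 and 6.33 in the 3 hum arrays of set A and 6.54 and 7.1 in its wt arrays. In set B it was 6.15, 6.17 and 6.28 in hum arrays and 6.60, 6.72 and 6.78 in wt arrays. All 6 hum arrays were below all 5 wt arrays. The gene was picked for its p on these same arrays, so this separation goes with the choice and adds no support. The genotype difference was -0.53 with the set (95% interval -0.75 to -0.31, limma adjusted p = 0.331) and -0.52 without it, so for this gene the set made little difference to the estimate.

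ENSMUSG00000001128_at had hum and wt means of 6.24 ± 0.0407 (SD, n = 3) and 6.65 ± 0.207 (SD, n = 2) in set A, and 5.79 ± 0.218 and 6.25 ± 0.0995 (SD, n = 3 each) in set B. The hum arrays were below the wt arrays within each set, but the wt arrays of set B overlapped the hum arrays of set A. The genotype difference was -0.44 with the set (95% interval -0.64 to -0.23, limma adjusted p = 0.331) and -0.39 without it, with a standard error of 0.0965 against 0.153.

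The 2 genes higher in hum with the smallest p were ENSMUSG00000029088_at and ENSMUSG00000046269_at. ENSMUSG00000029088_at had hum and wt means of 7.98 and 7.33 in set A and of 7.30 and 6.59 in set B, a genotype difference of 0.69 (95% interval 0.36 to 1.01, limma adjusted p = 0.331). ENSMUSG00000046269_at had means of 6.58 and 6.09 in set A and of 6.63 and 6.27 in set B, a genotype difference of 0.41 (95% interval 0.22 to 0.61, limma adjusted p = 0.331). In both, hum arrays were above wt arrays within each set. The genotype genes were all picked for their p on these arrays, so such separation adds no support. None of them passed the test.

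ENSMUSG00000029563_at, the gene limma called lower in ko than wt juveniles (-0.59, adjusted p = 0.000829), was chosen for its behaviour there. In set A its values were 8.76 in wt replicate 1, 8.92 in hum replicate 5, 9.50 in wt replicate 5, 9.72 in hum replicate 1 and 10.06 in hum replicate 4. Set B had a lowest value of 9.23, a median of 9.68 and a highest value of 10.30. The sets overlapped, with an adjusted difference of 0.32. Its genotype difference in adults was 0.45 with the set (95% interval 0.003 to 0.89, limma adjusted p = 0.353) and did not pass.

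Whether the same genes moved in other arrays was looked up in labelled contrasts that share no array with the adults. Between embryonic runs, limma called 2417 genes lower in run 5 than in run 4 (25.5%) and 3911 higher (41.3%). Of the 295 genes lower in adult set B, 117 were lower (39.7%) and 91 higher (30.8%) in run 5, and of the 40 higher genes 5 were lower and 18 higher. Over all genes the correlation of the run difference with the set difference was 0.11. The 25th percentile itself differed between these runs, at 5.2 ± 0.026 in run 5 (SD, n = 14) and 5.36 ± 0.070 in run 4 (SD, n = 11). The difference of -0.161 had a two-sided permutation p of 1e-05, the smallest that 100000 resamples can give. Each embryonic litter lies in 1 run, so arrays are not independent units here. Over the means of the 8 litters, 5.19 to 5.21 in the 3 of run 5 and 5.31 to 5.41 in the 5 of run 4, the difference was -0.166 with an exact two-sided permutation p of 0.0179, the smallest that 56 assignments allow. In run 4, 10 of 11 embryos lay at or above 5.2, the side of set B. Relative to all genes, the 295 genes stood at 0.53 to 0.64 in run 4 and 0.28 to 0.51 in run 5. These genes and the threshold were chosen in adults, and what sets their level in embryos was not tested.

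Between juvenile runs, limma called 602 genes in run 2 against run 1 (6.36%) and 83 in run 3 against run 1 (0.877%). Of the 295 lower genes 7 and 0 were called, and of the 40 higher genes 1 and 1. By direction alone, 16.6% of the 295 genes and 82.5% of the 40 were lower in run 2 than in run 1, against 45.8% of all genes. For run 3 against run 1 these shares were 38.6%, 70% and 54.8%. Age in juveniles was a further labelled contrast: 1719 genes were lower at 21 than at 15 days (18.2%) and 1077 higher (11.4%). Of the 295 genes 21 were lower and 23 higher with age, and of the 40 genes 9 were lower and 5 higher. The correlations of these contrasts with the set difference over all genes were -0.23, -0.08 and -0.10.

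In juveniles the genes that were lower in adult set B did follow the percentile of the array. With line, genotype, sex, age and run in the fit, 282 of the 295 (95.6%) had a negative slope on the 25th percentile across the 35 juvenile arrays, against 51.3% of all genes. Their median slope was -0.28 on the log2 scale for each 0.1 of the percentile. Of the 40 higher genes 29 (72.5%) had a positive slope, against 48.7% of all genes. Over all genes the correlation of the slopes with the adult set difference was 0.44. In the 25 embryos, 211 of the 295 genes (71.5%) had a negative slope, against 64.8% of all genes, and the correlation was -0.02. The percentile is made from the same values as the slopes, so these shares are descriptions.

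Among the 60 arrays outside the adult group, 2 juveniles lay in the range of set B for the 295 genes. A hum juvenile of line Ki (21 days, female, run 3, litter 3) had these genes at -0.14 relative to all genes, and a wt juvenile of line Ko (15 days, female, run 1, litter 8) at -0.13. Their 25th percentiles were 5.21 and 5.25, and their 40 higher genes stood at 0.10 and -0.01, below all of set B. The other 58 arrays ran from 0.19 to 0.79, between the sets. Without those 2 juveniles the slopes in the remaining 33 were negative for 267 of the 295 genes (90.5%, against 52.9% of all genes), with a median of -0.18 and a correlation of 0.33 with the adult difference. The juvenile values were deposited with fewer decimals than the rest and may have been computed apart, so levels across ages are set side by side only.

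**Figure D5:**
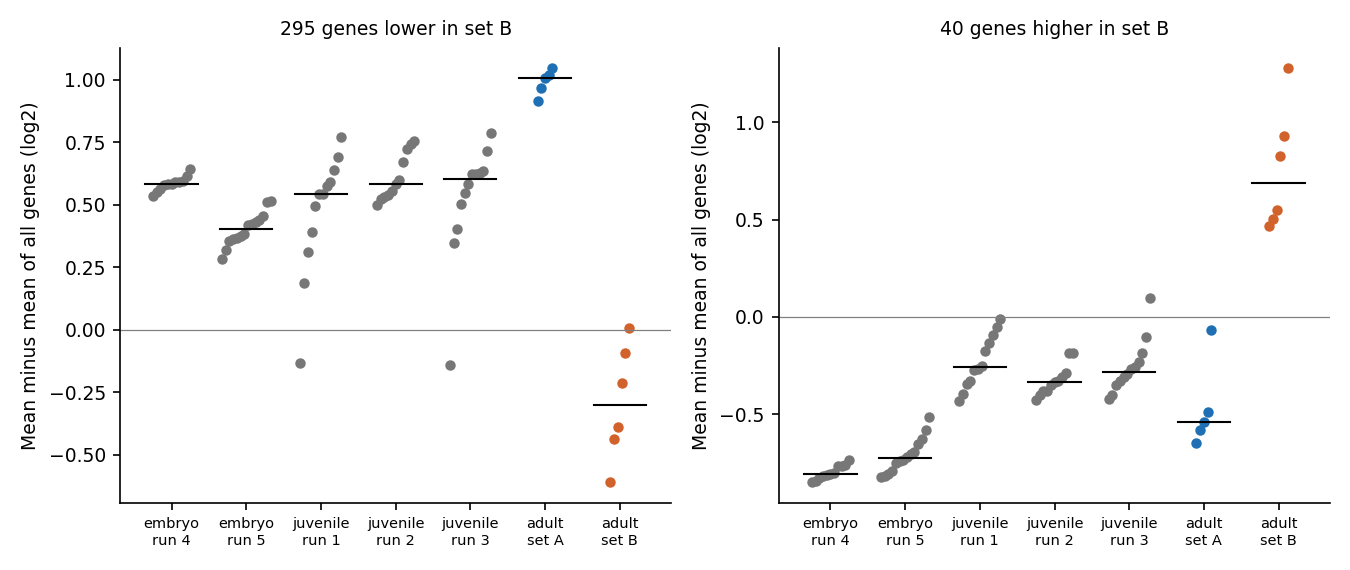
Each point is 1 of 71 arrays, grouped by stage and run or by adult set, with the mean of the 295 lower genes (left) or the 40 higher genes (right) minus the mean of all 9461 genes of that array on the y axis (log2); black lines are group medians. Set A lies above and set B below nearly all other arrays on the left, apart from the 2 juveniles at -0.14 and -0.13, and set B lies above all others on the right.

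The 295 lower genes had a higher spread than all genes in juveniles and about the same in embryos. After the labelled factors were fitted, the median residual SD of the 295 genes was 0.253 in juveniles, against 0.147 for all genes, and 0.160 in embryos, against 0.158. The 40 higher genes had 0.220 in juveniles and 0.212 in embryos. In the adults, with the set in the fit, the residual SD was 0.328 for the 295 genes and 0.342 for the 40, against 0.201 for all genes. Both groups were chosen on these adult arrays, and such a choice favours genes that vary. The adult values are therefore given without a conclusion. Which cells these genes mark, and whether dissection, RNA quality or array processing moved with the sets, was not tested.

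Applied to the other arrays, the threshold of 5.2 would have put below it 1 of 11 embryos of run 4, 7 of 14 of run 5, 7 of 12 juveniles of run 1, 11 of 11 of run 2 and 8 of 12 of run 3.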

How the data were processed

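Biotin-labelled cRNA from striatal RNA was measured on 1-colour oligonucleotide arrays, per the labels' protocols. The authors deposited log2 values, 1 row for each of 15768 genes. Background was corrected and arrays were normalized, if at all, by steps not given in the sources used here, and what such steps do to low percentiles was not tested. Precision is limited by the number of arrays; signal over background is not recorded in the values.

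Groups, run and litter came from the labels, and the 2 adult sets from the 25th percentile. The members and lists were chosen with earlier results of these data known. Rows in the dimmest 40% by mean over 71 arrays were left out, leaving 9461. Set differences are lmFit coefficients with genotype in the fit. Tested contrasts used limma 3.58.1 in R 4.3.3 with an intensity trend and Benjamini-Hochberg adjustment at 0.05. The fits were checked on simulated data with independent residuals, which covers neither sisters nor a split made from the values. P-values measure the spread between animals; some are sisters.

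Genes were to be named by symbol, 12 in each direction, and 28 lists of cell type and pathway genes were to be counted. None of the identifiers was paired with a symbol in the tables used here, so the lists were not looked up, and 2 rising and 2 falling genes are given for the sets (largest differences without overlap) and for genotype (among the 6 smallest p).

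Litter marks shared parentage. The estimated within-litter correlation of residuals was 0.16 in the adult fit with set and 0.0049 in the embryos. The replicate number of the labels counts littermates and pairs nothing. Alternatives were other filters, quantile normalization, median centring, no trend, array weights, an adjusted p of 0.10, blocks, subsets and each adult array left out. Those added after seeing the data were genes chosen on other arrays, the look-ups in juveniles and embryos, the first principal component as a covariate, female embryos alone and litter means.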

Additional observations from a re-analysis of the deposited data

Results flagged for a closer look

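The array of wt replicate 1, the only animal of litter 13, stood apart from the other 4 arrays of set A on 2 measures. Its score on the second principal component was 34.6, against -10.4 to -6.17 in the others. Its mean of the 40 genes higher in set B, relative to all genes, was -0.07 (-0.0662), against -0.65 to -0.49. Each was flagged because the gap to the nearest array was large against the range of the set by Dixon's criterion. Over 56 groups examined these were the 2 flags, and chance alone flags about 1 group in 20.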

How the results depend on the processing

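The 11 arrays kept their set when ordered by the 10th percentile, the interquartile range or the first principal component. The interquartile range contains the 25th percentile, and the 10th percentile lies in the same dim part, so agreement of these with the rule was largely given. On the interquartile range the sets came as near as 3.375 in set A and 3.369 in set B. Over the 9461 genes tested the 25th percentile overlapped between the sets (7.24 to 7.29 in A, 7.23 to 7.27 in B) and put 3 of 11 arrays in the same set, so the separation by this percentile rests on rows dimmer than those tested. The count of 295 lower genes stayed within 1.5 times under every alternative run. The count of 40 higher genes became 23 with the dimmest 60% left out and 108 in wt arrays alone, and ranged from 12 to 64 with single arrays left out. Genes with all set B arrays above set A numbered 1122 of 15768 rows with no filter, against 694 of the 9461 genes tested. They numbered 448 with the dimmest 60% left out, 2259 in hum and 1746 in wt arrays alone, and 715 to 1300 with single arrays left out. Those below numbered 2542 in hum and 2123 in wt arrays alone. Fewer arrays by themselves make overlap rarer. A filter also changes how many genes are counted, so counts under other filters do not by themselves show a changed share. This holds for the 40 higher genes too. With litter as a fixed replicate block, ENSMUSG00000024411_at moved from -2.67 to -3.60. Genotype with the set in the fit gave 0 calls under every alternative (smallest adjusted p 0.0505 to 0.743), including litter as a random or fixed replicate block and the label replicate number as a block. Within set A the calls ran from 0 to 1210 with single arrays left out, within set B from 0 to 2, and for their difference from 0 to 1; the other alternatives gave 0. Genes lower in embryonic run 5 numbered 5516 of 15768 rows with no filter, against 2417 of 9461. With the dimmest 60% left out they numbered 1420, again from fewer genes. No named gene changed direction where it was kept. With the dimmest 60% left out, the named genes kept were ENSMUSG00000024411_at, ENSMUSG00000052456_at and ENSMUSG00000029563_at. The rising set genes and the genes named for genotype fell below that filter.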
